A study of Mus musculus with 4 samples.

Results

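Cytosine methylation of DNA is written, copied and removed by a small set of enzymes, and 8 of their genes, Dnmt1, Dnmt3a, Dnmt3b, Dnmt3l, Tet1, Tet2, Tet3 and Uhrf1, were followed here in single mouse embryos. They were chosen by name, and all 8 were found by their Ensembl identifiers among the 39179 genes counted and passed the filter on low counts that left 15822 genes for testing. The 4 embryos were chimeras staged at E7.75, a time of gastrulation and early head formation. In 2 of them the injected embryonic stem cells (ESCs) carried FLAG-Lhx1, a doxycycline-inducible, FLAG-tagged form of the LIM homeodomain transcription factor LHX1. In the other 2 the ESCs carried FLAG-Lhx1-mt, also labelled FLAG-Lhx1-Δ. The sources used here do not say which part of that protein is missing.

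Both groups shared the same handling. 2i medium was used to culture the ESCs, 8-cell hosts of an ARC x RLZRFP cross received them, and the pseudopregnant females were given 2 mg/mL doxycycline with 5% sucrose in their water for 24 hours. Collection was at E8.5, and the stage of E7.75 reflects a delay of about a day. The ESC contribution was checked before freezing. Chimeras also hold cells of the host, RNA came from individual embryos, and no uninduced embryo was analysed here. The sources used here do not say how many ESC clones were injected. The 2 embryos of a group are called its pair, with replicate 1 given before replicate 2, and embryos were not matched across groups. The 4 libraries held 21267116 to 30434442 counts. Lhx1 itself had 129 and 114 CPM (counts scaled to a common library size with TMM, the trimmed mean method of edgeR) for the FLAG-Lhx1 pair and 126 and 98.5 CPM for the FLAG-Lhx1-mt pair (log2 fold 0.11, edgeR adjusted p = 0.733), but gene counts do not separate transgene from endogenous transcripts or one form from the other, so this checks no label.

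DNMT3A and DNMT3B place methyl groups on previously unmethylated CpG sites, and DNMT3L, which has no catalytic activity of its own, stimulates them. DNMT1 copies the pattern onto the new strand after replication, guided to hemimethylated sites by UHRF1. TET1, TET2 and TET3 oxidise 5-methylcytosine, which leads to its loss by repair or by dilution at cell division. In the mouse, the epiblast gains most of its methylation around implantation, with DNMT3B as a main enzyme.

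Dnmt3b was the one gene of the 8 that passed the test, and the window before its start site is printed for that reason. The sequence is RefSeq's on GRCm38.p6, chr2:153649199-153649448 on the plus strand, the 250 bases before the start, with CpG dinucleotides in capitals.
Dnmt3b: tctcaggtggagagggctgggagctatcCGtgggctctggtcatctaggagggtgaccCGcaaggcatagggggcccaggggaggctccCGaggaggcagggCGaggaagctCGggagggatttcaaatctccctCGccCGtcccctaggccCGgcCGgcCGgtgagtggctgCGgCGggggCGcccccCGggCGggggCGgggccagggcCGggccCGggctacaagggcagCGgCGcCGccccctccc
It holds 21 CpG, more than 83.7% of 32817 windows of the same length, whose median was 6. RefSeq start sites were matched for all 8 genes. The windows of Tet2 (51 CpG), of the upstream starts of Dnmt3a (38 and 40), of a start of Uhrf1 (30) and of a start of Dnmt1 (26) held more CpG than that of Dnmt3b. The 3 windows of Dnmt3l held 5, 4 and 3. The sequence TAATTA, a core recognised by many homeodomain proteins, was searched on both strands. It was in none of the windows of these genes and in 4.85% of all windows. The sequence TTTGGCGC, one form of the E2F recognition sequence, was searched in the same way. It was in none of the windows of these genes and in 0.417% of all windows. The sequence TTTCGCGC, another form of the E2F recognition sequence, was found on either strand in 0.256% of all windows. It was in 1 window of Dnmt1 and 1 of Uhrf1. The stretch around it in Uhrf1, at chr17:56304102-56304161 on the plus strand, is given with the match in capitals, because Uhrf1 and Dnmt1 are set side by side below.
Uhrf1: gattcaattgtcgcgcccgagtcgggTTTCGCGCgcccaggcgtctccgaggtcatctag
The match begins 185 bases before that start of Uhrf1. These matches describe letters in a window and do not show that a factor binds there.

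Dnmt3b was lower in FLAG-Lhx1 embryos. Dnmt3b (ENSMUSG00000027478) lies on chromosome 2 at 153649450 to 153687730 of GRCm38 on the plus strand. It had 363 and 257 CPM for the FLAG-Lhx1 pair, against 520 and 711 CPM for the FLAG-Lhx1-mt pair. Both FLAG-Lhx1 embryos were below both FLAG-Lhx1-mt embryos, and the spread within each group was smaller than the gap between the means. Mean levels with their SD (n = 2 each) were 310 ± 74.9 CPM for FLAG-Lhx1 and 616 ± 135 CPM for FLAG-Lhx1-mt. The log2 fold, FLAG-Lhx1 over FLAG-Lhx1-mt, was -0.99 ± 0.19 (SE, 95% interval -1.38 to -0.59), which is 1.98-fold lower, with an edgeR quasi-likelihood p adjusted over all tested genes of 0.00607. Dnmt3b was called with the same sign under each of the 12 alternative settings run, and its log2 fold was -1.29 to -0.75 with 1 embryo left out. In whole embryos, fewer cells that express a gene and less RNA per cell cannot be told apart.

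The other 7 genes did not pass at an adjusted p of 0.05. Thus 1 of 8 was called, against 6.17% of all tested genes called in either direction, 3.55% called lower and 2.62% called higher. An unadjusted p under 0.05 was found for 4 of the 8, against 21.3% of all tested genes. Values of the 2 groups did not overlap for 6 of the 8, against 52.2% of all tested genes. The fall of Dnmt3b ranked 212 by size among the 561 genes called lower. The median log2 fold of the 8 genes was 0.07, and that of all tested genes was 0.01.

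**Figure D1:**
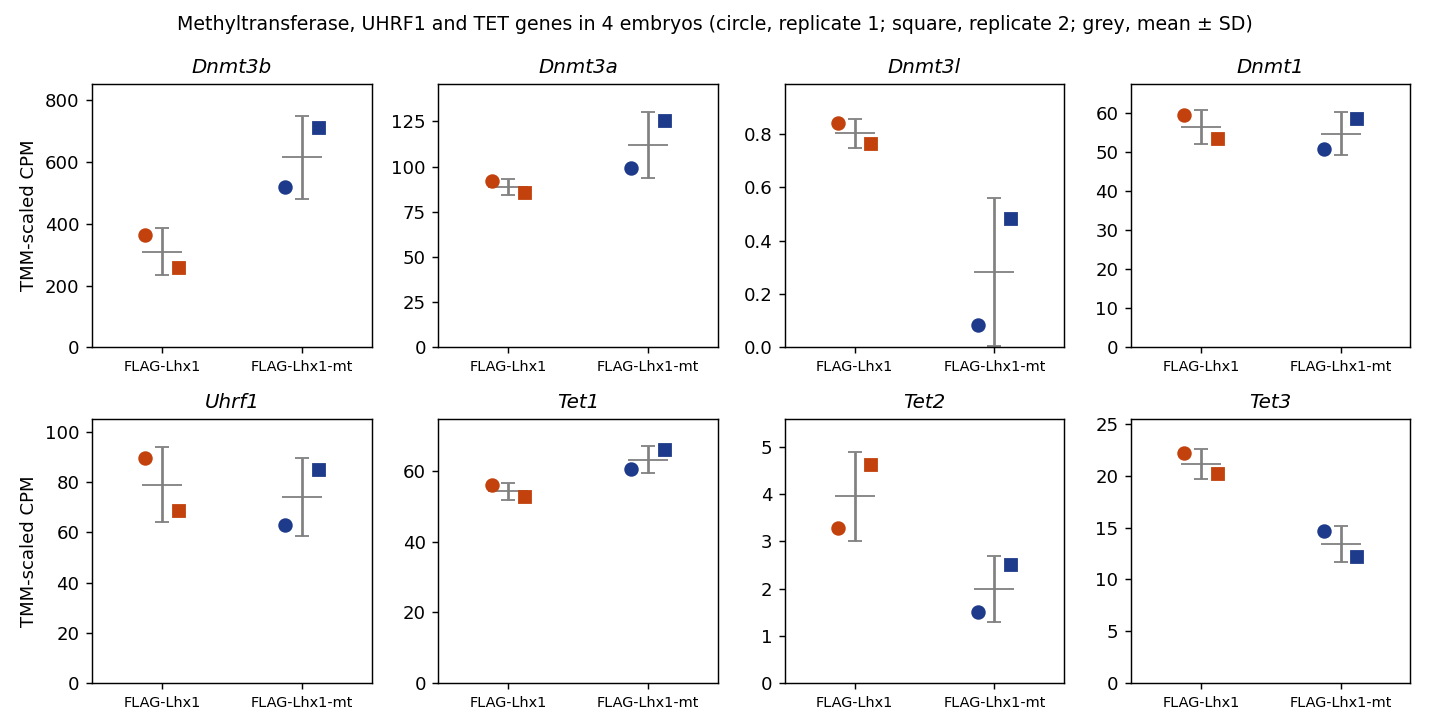
TMM-scaled CPM (y axis, linear, from 0) of each of the 8 genes in the 2 FLAG-Lhx1 embryos (orange, left) and the 2 FLAG-Lhx1-mt embryos (blue, right), with circles for replicate 1, squares for replicate 2 and the mean ± SD in grey. Dnmt3b stands at 363 and 257 CPM for FLAG-Lhx1 and at 520 and 711 CPM for FLAG-Lhx1-mt, while Dnmt1 and Uhrf1 overlap between the groups.

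Dnmt3a, which encodes the other de novo methyltransferase, had lower values in FLAG-Lhx1 but was not called. Dnmt3a (ENSMUSG00000020661, chromosome 12 at 3806007 to 3914443) had 91.8 and 85.5 CPM for the FLAG-Lhx1 pair, against 99.2 and 125 CPM for the FLAG-Lhx1-mt pair. The groups did not overlap, but the lowest FLAG-Lhx1-mt value was close to the highest FLAG-Lhx1 value. Its log2 fold was -0.34 ± 0.15 (SE, 95% interval -0.66 to -0.01, edgeR adjusted p = 0.218). It was called lower with offsets for transcript length and GC content (-0.54, adjusted p = 0.0426). With 1 embryo left out, its log2 fold was -0.50 to -0.17. Gene-level counts cannot separate the full-length transcript from the shorter one that starts within the gene.

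Per kilobase of exon, the Dnmt3b level was 12.9 and 9.81 times that of Dnmt3a for the FLAG-Lhx1 pair, and 17.1 and 18.5 times for the FLAG-Lhx1-mt pair. The ratio was lower in both FLAG-Lhx1 embryos than in both FLAG-Lhx1-mt embryos. Such a ratio within a library does not depend on how libraries are scaled. Offsets for length and GC content do not cancel in it. With them the log2 fold of Dnmt3a went from -0.34 to -0.54 and that of Dnmt3b from -0.99 to -1.04. No test was run on the ratio. An exact permutation of 2 against 2 embryos cannot give a two-sided p below 0.333.

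Dnmt3l, the catalytically inactive stimulator of the DNMT3 enzymes, was near the limit of detection. Dnmt3l (ENSMUSG00000000730, chromosome 10 at 78041947 to 78063622) had 22 and 15 counts for the FLAG-Lhx1 pair, against 2 and 15 counts for the FLAG-Lhx1-mt pair. This corresponds to 0.840 and 0.763 CPM against 0.0859 and 0.479 CPM, and a count of 3 is worth 0.0959 to 0.153 CPM in these libraries. The FLAG-Lhx1-mt replicates differed more from each other than FLAG-Lhx1-mt replicate 2 differed from either FLAG-Lhx1 embryo. Exact 95% binomial intervals, which cover counting error only, were 0.526 to 1.27 and 0.427 to 1.26 CPM for the FLAG-Lhx1 pair, and 0.0104 to 0.310 and 0.268 to 0.791 CPM for the FLAG-Lhx1-mt pair. The log2 fold was 1.43 ± 0.78 (SE, 95% interval -0.22 to 3.08, edgeR adjusted p = 0.311), and leaving out a FLAG-Lhx1-mt embryo gave 0.73 (replicate 1) or 3.13 (replicate 2). A rise in Dnmt3l as large as the fall of Dnmt3b lies within that interval and was not resolved at this depth. Exons of Aire cover 2.24% of its exon bases, and the strand setting of the counting is not known.

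The maintenance genes Dnmt1 and Uhrf1 showed no detectable difference. Dnmt1 (ENSMUSG00000004099, chromosome 9 at 20907209 to 20959888), the copying enzyme, had 59.6 and 53.4 CPM for the FLAG-Lhx1 pair, against 50.8 and 58.6 CPM for the FLAG-Lhx1-mt pair. The ranges of the 2 groups overlapped. Its log2 fold was 0.05 ± 0.16 (SE, 95% interval -0.28 to 0.38, edgeR adjusted p = 0.903), and its sign was not stable, as it was negative under 4 alternative settings. That interval does not reach the log2 fold of Dnmt3b.

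Uhrf1 (ENSMUSG00000001228, chromosome 17 at 56303321 to 56323486), which brings DNMT1 to replicated DNA, had 89.5 and 68.4 CPM for the FLAG-Lhx1 pair, against 63.0 and 85.0 CPM for the FLAG-Lhx1-mt pair. Each group held 1 higher and 1 lower embryo, and the groups overlapped. The log2 fold was 0.09 ± 0.18 (SE, 95% interval -0.28 to 0.47, edgeR adjusted p = 0.812), and it was negative in 2 settings, each of which left out replicate 1 of a group. Per kilobase, the Uhrf1 level was 2.60 and 2.22 times that of Dnmt1 for the FLAG-Lhx1 pair and 2.15 and 2.51 times for the FLAG-Lhx1-mt pair. The embryo with more Uhrf1 in each group also had more Dnmt1.

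**Figure D2:**
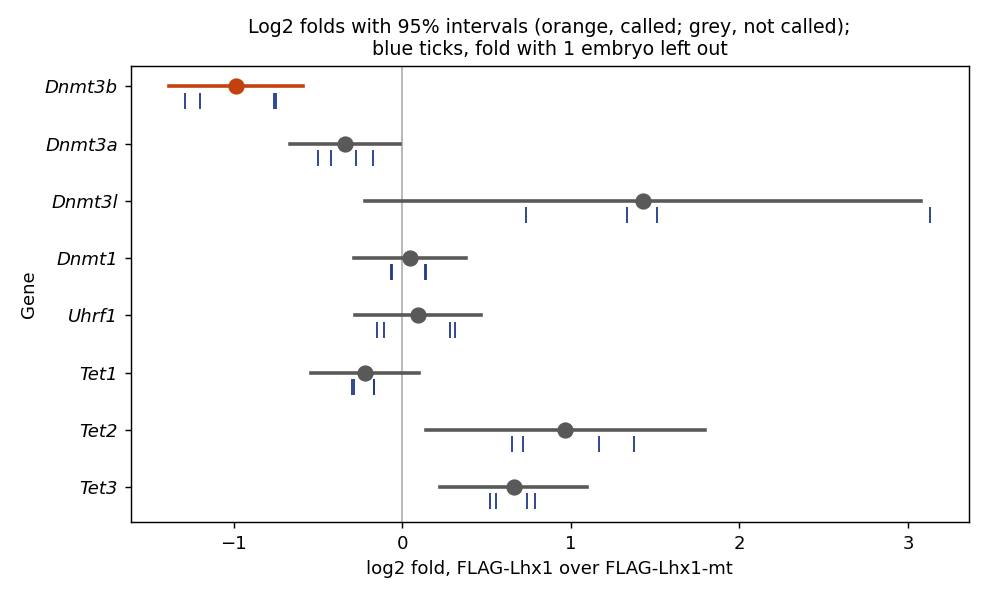
Log2 fold of each gene (x axis, FLAG-Lhx1 over FLAG-Lhx1-mt) with its 95% interval, in orange where edgeR called the gene and in grey where it did not, and blue ticks for the fold with 1 embryo left out. The interval of Dnmt3b runs from -1.38 to -0.59, those of Dnmt1 and Uhrf1 span 0, and that of Dnmt3l runs from -0.22 to 3.08.

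Among the dioxygenase genes, Tet1 had slightly lower values in FLAG-Lhx1 and Tet2 and Tet3 higher ones, and none was called. Tet1 (ENSMUSG00000047146, chromosome 10 at 62804570 to 62908996), known in the mouse for its high level in ESCs and epiblast, had 56.0 and 52.6 CPM for the FLAG-Lhx1 pair, against 60.5 and 66.0 CPM for the FLAG-Lhx1-mt pair. The groups did not overlap, but the gap between them was about as large as the difference between replicates. The log2 fold was -0.22 ± 0.15 (SE, 95% interval -0.54 to 0.10, edgeR adjusted p = 0.430), and -0.52 with the offsets for length and GC content (adjusted p = 0.0526).

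Tet3 (ENSMUSG00000034832, chromosome 6 at 83362373 to 83459084), known for oxidation of the paternal genome in the zygote and for a role in neural development, had 22.2 and 20.1 CPM for the FLAG-Lhx1 pair, against 14.6 and 12.2 CPM for the FLAG-Lhx1-mt pair. Both FLAG-Lhx1 embryos were above both FLAG-Lhx1-mt embryos. The log2 fold was 0.66 ± 0.20 (SE, 95% interval 0.22 to 1.096), and the edgeR adjusted p was 0.0695. With 1 embryo left out, the log2 fold was 0.52 to 0.79. With the offsets for length and GC content the log2 fold was 0.45 (adjusted p = 0.247). Upper-quartile scaling, DESeq2, the newer form of edgeR and limma-voom gave adjusted p of 0.0518, 0.0528, 0.0534 and 0.0582. The replicate block and edgeR with no count filter gave 0.0827 and 0.122, so none of these called Tet3.

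Tet2 (ENSMUSG00000040943, chromosome 3 at 133463679 to 133545139), best known for its part in blood stem cells, was low, with 86 and 91 counts for the FLAG-Lhx1 pair against 35 and 78 counts for the FLAG-Lhx1-mt pair. In CPM these were 3.28 and 4.63 for FLAG-Lhx1 and 1.503 and 2.49 for FLAG-Lhx1-mt. The groups did not overlap, but the exact 95% binomial interval of FLAG-Lhx1 replicate 1, 2.63 to 4.05 CPM, overlapped that of FLAG-Lhx1-mt replicate 2, 1.97 to 3.11 CPM. The log2 fold was 0.97 ± 0.39 (SE, 95% interval 0.14 to 1.79, edgeR adjusted p = 0.162). Leaving out FLAG-Lhx1-mt replicate 2 gave a log2 fold of 1.37, and leaving out FLAG-Lhx1-mt replicate 1 gave 0.65.

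The summed level of the 3 Tet genes per kilobase was 5.15 and 4.88 CPM per kilobase for the FLAG-Lhx1 pair and 4.88 and 5.15 CPM per kilobase for the FLAG-Lhx1-mt pair, so the sums covered the same range in both groups. Divided by the longest transcript instead of the merged exons, the sums were 6.29 and 6.01 for the FLAG-Lhx1 pair and 5.72 and 5.99 CPM per kilobase for the FLAG-Lhx1-mt pair, without overlap, so this depends on the length used. The share of each gene in the sum did not overlap between the groups with either length. A gene's length is the same in all embryos and the shares add to a whole. The choice of length could therefore hardly change this, and the agreement is no separate check. The shares that follow use the merged exons. Tet1 made up 70.4% and 69.7% of the sum for the FLAG-Lhx1 pair and 80.2% and 82.9% for the FLAG-Lhx1-mt pair. Tet3 made up 25.8% and 24.7% for FLAG-Lhx1 and 18.0% and 14.2% for FLAG-Lhx1-mt, and Tet2 at most 5.62% in any embryo. The Tet1 to Tet3 ratio was 2.72 and 2.82 for the FLAG-Lhx1 pair, against 4.46 and 5.84 for the FLAG-Lhx1-mt pair, without overlap. This ratio rests on a pair of genes neither of which was called, and no test was run on it.

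**Figure D3:**
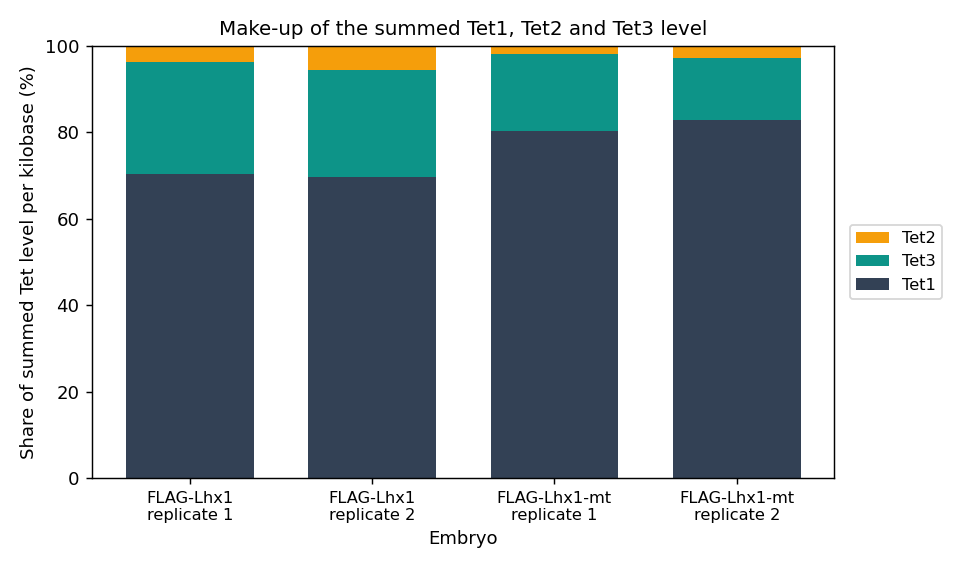
Share of the summed Tet level per kilobase (y axis, percent) made up by Tet1 (dark), Tet3 (green) and Tet2 (yellow) in each embryo, FLAG-Lhx1 left and FLAG-Lhx1-mt right. Tet3 takes 25.8% and 24.7% of the sum in the FLAG-Lhx1 embryos and 18.0% and 14.2% in those of FLAG-Lhx1-mt.

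The levels of the 8 genes spanned more than 2 orders of magnitude per kilobase of exon. Dnmt3b was highest in both groups, at 60.8 ± 14.7 CPM per kilobase for FLAG-Lhx1 and 121 ± 26.4 for FLAG-Lhx1-mt (SD, n = 2 each). Uhrf1 came next, at 18.5 ± 3.51 CPM per kilobase for FLAG-Lhx1 and 17.4 ± 3.65 for FLAG-Lhx1-mt. Below it were Dnmt1, with mean levels of 7.66 for FLAG-Lhx1 and 7.42 for FLAG-Lhx1-mt, Dnmt3a, with 5.33 and 6.73, and Tet1, with 3.51 and 4.09 CPM per kilobase. Tet3 was at 1.27 in FLAG-Lhx1 and 0.804 CPM per kilobase in FLAG-Lhx1-mt. Dnmt3l and Tet2 were lowest, at 0.268 and 0.234 CPM per kilobase for FLAG-Lhx1 and 0.0946 and 0.118 for FLAG-Lhx1-mt.

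Most neighbours in this order were farther apart than the spread between replicates. The exceptions were Dnmt1 and Dnmt3a in FLAG-Lhx1-mt, whose ranges overlapped, and Dnmt3l and Tet2 in both groups. Divided by the longest transcript instead of the merged exons, Dnmt3a stood above Dnmt1 in FLAG-Lhx1-mt (11.6 and 9.32 CPM per kilobase), so their order changes with that choice. Dnmt3b made up 83.7% and 80.0% of the summed Dnmt level per kilobase for the FLAG-Lhx1 pair and 88.8% and 89.9% for the FLAG-Lhx1-mt pair. The ratio of the summed Dnmt to the summed Tet level was 16.5 and 12.9 for the FLAG-Lhx1 pair, against 23.5 and 30.05 for the FLAG-Lhx1-mt pair. Since Dnmt3b makes up most of the numerator, the ratio is not independent of the level of Dnmt3b.

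**Figure D4:**
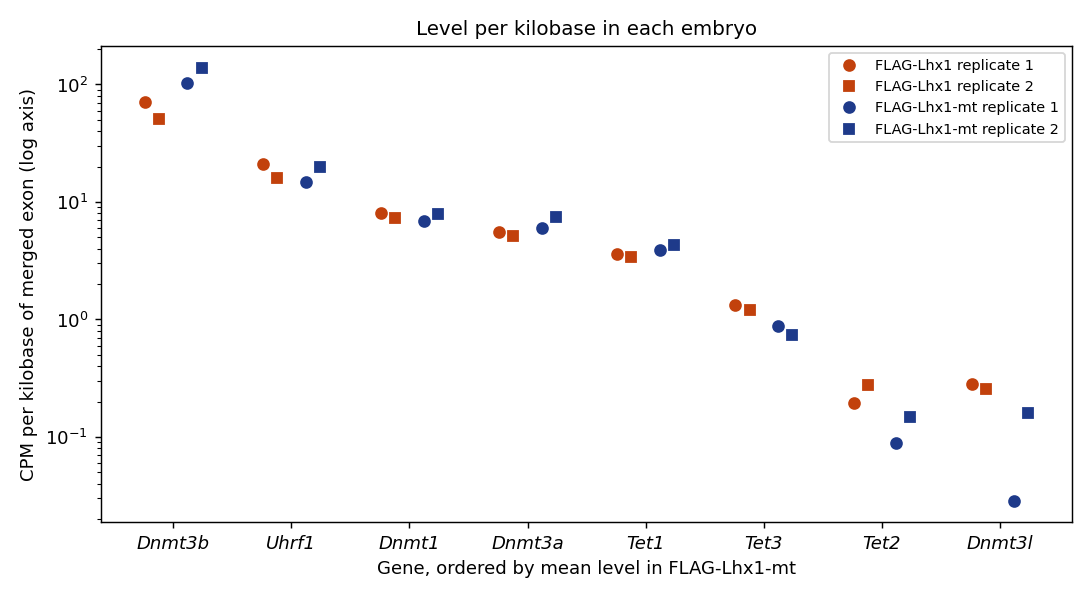
Level of each gene in each embryo as CPM per kilobase of merged exon (y axis, log scale), FLAG-Lhx1 in orange and FLAG-Lhx1-mt in blue, with genes ordered by their mean in FLAG-Lhx1-mt. Dnmt3b is highest in all 4 embryos, and Tet2 and Dnmt3l are lowest.

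The genes around these enzymes were followed in lists. For comparison with the counts of called genes in each list, 6.17% of all tested genes were called, 2.62% higher and 3.55% lower. Whether a list held more calls than this share was not tested. Where a list held 1 called gene, that gene is named, and the call is not taken as a change of the list. Of 11 tested partners of maintenance methylation, 1 fell and none rose (median log2 fold 0.00). It was Zfp57, which encodes a zinc finger protein that protects methylation at imprinted regions, with 19.5 and 20.1 CPM for the FLAG-Lhx1 pair against 44.7 and 26.7 CPM for the FLAG-Lhx1-mt pair (log2 fold -0.85, edgeR adjusted p = 0.0344). Its log2 fold was -0.44 without FLAG-Lhx1-mt replicate 1, and the call was then lost (adjusted p = 0.215). Upper-quartile normalization and limma-voom did not call it either (adjusted p = 0.0515 and 0.0502). The chromatin remodeller gene Hells and Pcna, which encodes the replication clamp, were not called (log2 folds 0.20 and 0.24, edgeR adjusted p = 0.447 and 0.353).

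Of 23 tested genes of DNA replication, Ccne1, which encodes cyclin E1, fell and none rose, with a median log2 fold of 0.01. Its log2 fold was -0.57 (edgeR adjusted p = 0.0419). Ccne1 was no longer called when replicate 2 of FLAG-Lhx1 (-0.43) or replicate 1 of FLAG-Lhx1-mt (-0.42) was left out, nor under the offsets for length and GC content or upper-quartile scaling. The summed level of the list was 5041 and 5039 CPM for the FLAG-Lhx1 pair and 4983 and 4720 CPM for the FLAG-Lhx1-mt pair. The transcripts of Dnmt1 and Uhrf1, which showed no detectable difference, are known to be highest in S phase. The share of cells in S phase was not measured.

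Of 14 tested genes that help target the DNMT3 enzymes or encode chromatin modifiers linked to them, 1 rose and none fell (median log2 fold 0.18). It was Cbx3, which encodes the heterochromatin protein HP1 gamma, at 470 and 485 CPM for the FLAG-Lhx1 pair, against 262 and 277 CPM for the FLAG-Lhx1-mt pair (log2 fold 0.83, edgeR adjusted p = 0.00319). The embryos of a group lay close together, and the fold was 0.78 to 0.85 with 1 embryo left out. Of the other 2 genes of the DNMT family in the files, neither was called. Trdmt1, which encodes a tRNA methyltransferase, had a log2 fold of 0.20 (edgeR adjusted p = 0.633). Dnmt3c, a rodent gene known from male germ cells, had 15 and 9 counts for the FLAG-Lhx1 pair and 3 and 12 counts for the FLAG-Lhx1-mt pair. It is a close copy of Dnmt3b, so reads may have been split between the 2 genes, and its value is uncertain.

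On the removal side, 1 of 15 tested genes of oxidised base repair rose and none fell (median -0.02). It was Gadd45a, which encodes a stress-response protein linked to DNA demethylation, with 7.59 and 5.65 CPM for the FLAG-Lhx1 pair against 2.49 and 1.66 CPM for the FLAG-Lhx1-mt pair (log2 fold 1.69, edgeR adjusted p = 0.00964). Its call was lost without FLAG-Lhx1 replicate 1 (1.42, adjusted p = 0.0629), and exons of another gene cover 19.104% of its exon bases. Tdg, which encodes the glycosylase that excises the oxidised bases, was not called (-1.23, adjusted p = 0.121). It had 5.15 and 4.43 CPM for the FLAG-Lhx1 pair and 18.3 and 4.44 CPM for the FLAG-Lhx1-mt pair, so the high mean of the FLAG-Lhx1-mt group came from replicate 1.

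Of 11 tested TET cofactors and regulators, 1 rose and none fell (median -0.19). It was Cxxc4, which encodes a CXXC-domain protein known to bind and restrain TET2, with 4.05 and 3.92 CPM for the FLAG-Lhx1 pair against 1.55 and 1.57 CPM for the FLAG-Lhx1-mt pair (log2 fold 1.35, edgeR adjusted p = 0.0428). It was not called when FLAG-Lhx1 replicate 1 (1.30) or replicate 2 (1.39) was left out, nor with the offsets for length and GC content (1.02, adjusted p = 0.121). Of 10 methyl-CpG readers edgeR called none, 2 had an unadjusted p under 0.05, and the median was 0.18. The smallest p was that of Zbtb33, which encodes the reader Kaiso (log2 fold 0.73, edgeR adjusted p = 0.063). Zbtb33 was called by DESeq2 and limma-voom (adjusted p = 0.0453 and 0.0478), under the newer quasi-likelihood form of edgeR and under upper-quartile scaling. No other alternative with all 4 embryos called Zbtb33. Its log2 fold was 0.46 with the offsets for length and GC content (adjusted p = 0.225) and 0.52 to 0.93 with 1 embryo left out.

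Of 14 tested genes of methyl donor supply, 1 fell and none rose, with a median log2 fold of -0.32. It was Gnmt, which encodes glycine N-methyltransferase, an enzyme that uses up S-adenosylmethionine and is abundant in liver. Gnmt had 0.878 and 0.763 CPM for the FLAG-Lhx1 pair against 3.78 and 6.39 CPM for the FLAG-Lhx1-mt pair (log2 fold -2.62, edgeR adjusted p = 0.00203). Of 14 genes of the visceral endoderm, an extraembryonic tissue that shares many genes with liver, 6 were called lower and none higher. Their summed level was 2317 and 2726 CPM for the FLAG-Lhx1 pair and 4672 and 3981 CPM for the FLAG-Lhx1-mt pair. The sum and Gnmt were both lower in FLAG-Lhx1. Within each group the embryo with more Gnmt had the lower sum, though in FLAG-Lhx1 that order rests on 23 and 15 counts of Gnmt. The part of the visceral endoderm in the fall of Gnmt was not tested. The median log2 fold of the methyl donor list was -0.38 to -0.16 with 1 embryo left out.

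Of 24 listed germline genes that promoter methylation is known to keep silent in mouse somatic cells, 16 passed the count filter, 1 rose, 1 fell and the median log2 fold was 0.00. The summed level of the list was 49.996 and 43.4 CPM for the FLAG-Lhx1 pair and 43.3 and 39.0 CPM for the FLAG-Lhx1-mt pair. Tdrkh and Sycp3 made up much of it. Without Tdrkh the sums overlapped, at 33.7 and 30.8 CPM for the FLAG-Lhx1 pair and 35.8 and 31.0 CPM for the FLAG-Lhx1-mt pair. Sycp3, which encodes a protein of the meiotic chromosome axis, had 9.56 to 11.1 CPM in the 4 embryos, and exons of Chpt1 cover 52.2% of its exon bases. No other gene of the list exceeded 5.02 CPM in any embryo. Tdrkh, which encodes a piRNA pathway protein, rose (0.89, edgeR adjusted p = 0.0369), but was not called when FLAG-Lhx1 replicate 1 was left out (0.67) or with the offsets for length and GC content (0.66), while exons of Oaz3 cover 36.7% of its exon bases. Asz1, which encodes a germ cell protein of the same pathway, was called lower (edgeR adjusted p = 0.0322), with a total of 1 count over both FLAG-Lhx1 embryos and of 32 counts over both FLAG-Lhx1-mt embryos. The level in FLAG-Lhx1-mt was 26.9 times that in FLAG-Lhx1, with an exact 95% interval of 4.49 to 1095 for counting error only. DESeq2 did not call Asz1 (adjusted p = 0.102), and it was no longer called when either FLAG-Lhx1 embryo or FLAG-Lhx1-mt replicate 1 was left out.

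**Figure D5:**
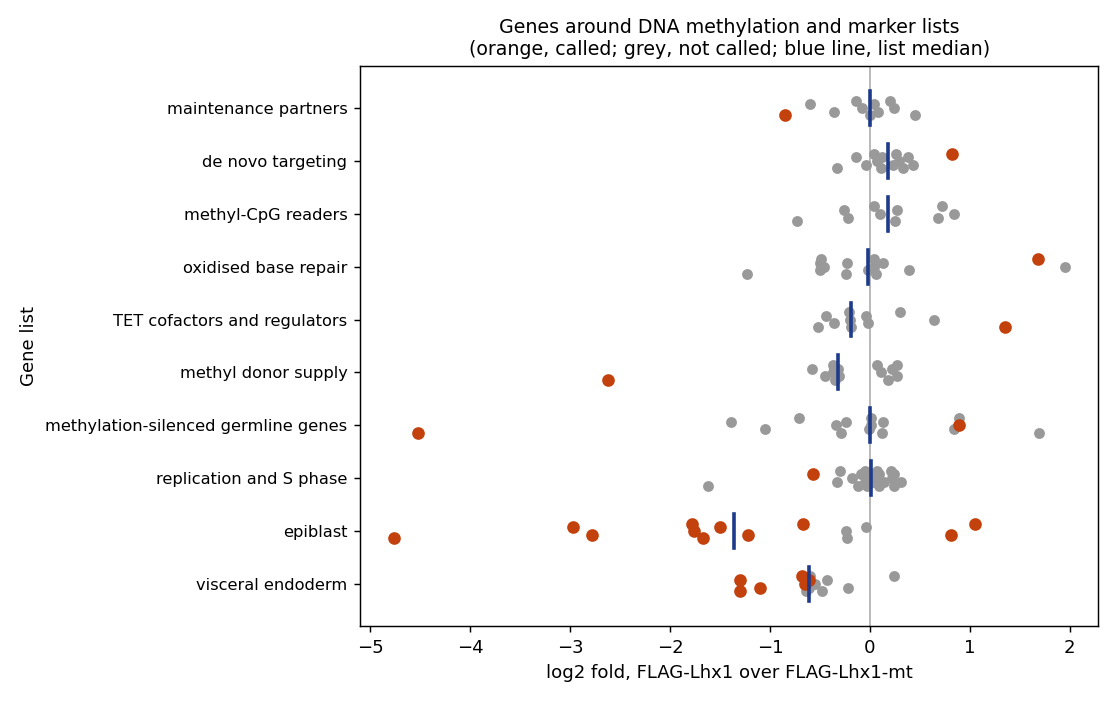
Log2 folds (x axis, FLAG-Lhx1 over FLAG-Lhx1-mt) of the tested genes of 10 lists, with called genes in orange, others in grey and the list median as a blue line. The lists of enzymes and readers around DNA methylation centre between -0.32 and 0.18 with at most 2 called genes each, and the epiblast list has 9 genes called lower and 2 higher.

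Other features of these embryos moved with Dnmt3b. Of 14 tested epiblast markers, 9 were called lower and 2 higher in FLAG-Lhx1 (median log2 fold -1.36), and their summed level was 954 to 1090 CPM for FLAG-Lhx1 and 1450 to 1761 CPM for FLAG-Lhx1-mt. Without FLAG-Lhx1 replicate 1, none of them was called higher and 9 were called lower. The 4 embryos stood in the same order by that sum as by Dnmt3b. The same order held for the primitive streak sum, the blood and endothelial sum and the share of ribosomal-RNA-like genes, all given below. Summed primitive streak markers were at 277 to 317 CPM for FLAG-Lhx1 and 641 to 684 CPM for FLAG-Lhx1-mt (5 of 9 tested lower, none higher). Lhx1 itself is in that list, and without it the sums were 189 and 163 CPM for the FLAG-Lhx1 pair and 515 and 586 CPM for the FLAG-Lhx1-mt pair. Summed anterior neural markers were at 206 to 225 CPM for FLAG-Lhx1 and 75.7 to 112 CPM for FLAG-Lhx1-mt (6 of 10 higher, none lower). Otx2 is in both the epiblast and the anterior neural list. Extraembryonic ectoderm markers were at 172 to 199 CPM for FLAG-Lhx1 and 205 to 212 CPM for FLAG-Lhx1-mt (1 of 11 tested higher and 1 lower). Blood and endothelial markers (44.5 to 45.4 CPM for FLAG-Lhx1 and 46.3 to 47.4 CPM for FLAG-Lhx1-mt) and decidual markers (21.1 to 23.4 and 21.8 to 25.5 CPM) had no called member out of 8 and 4 tested. The decidual prolactin gene Prl8a2 did not pass the count filter, with 2 and 3 counts for the FLAG-Lhx1 pair and 3 and 52 counts for the FLAG-Lhx1-mt pair, so that FLAG-Lhx1-mt replicate 2 stood apart. With that embryo left out, the log2 fold of Dnmt3b was -0.76. The globin genes Hbb-bh1 and Hba-x, which define primitive red cells, had at most 2 counts in a group. Ribosomal-RNA-like genes took 0.336% and 0.269% of counts for the FLAG-Lhx1 pair and 0.530% and 0.702% for the FLAG-Lhx1-mt pair. The part of these features in the fall of Dnmt3b was not tested. With the ribosomal-RNA-like genes left out, its log2 fold was -0.99. They held at most 0.702% of counts, so leaving them out could hardly change the fold and does not test their part.

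Genes with the most similar pattern over the 4 embryos were listed by the root mean square difference of log2 CPM centred on each gene's mean. For Dnmt3l, which had the largest fold of the 8, they were Mrgpre (0.07), Tecta (0.12) and Mmp19 (0.13), which are as low as Dnmt3l itself, at most 1.07 CPM in any embryo. For Dnmt3b, a comparison added after its values were seen and limited to genes whose mean level reached 50 CPM, they were Pim2 (0.04), a kinase gene, the ribosomal-RNA-like gene model Gm42418 (0.12) and Crip2 (0.14). Pim2 had 68.3 and 50.4 CPM for the FLAG-Lhx1 pair, against 94.96 and 131 CPM for the FLAG-Lhx1-mt pair. The log2 CPM used a prior count of 2 for the Dnmt3l comparison and an added 0.1 CPM for the Dnmt3b comparison. The differences of these comparisons are therefore not on the same scale. The likeness rests on 4 embryos and is a description only.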

How the data were processed

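RNA was sequenced from 4 individual embryos, 2 per group, as 100 bp paired ends from Geo-seq libraries, a full-length method for small inputs, with 10 cycles of pre-amplification and 0.5 ng of cDNA for Nextera XT, per the labels' protocols. The authors deposited raw, unscaled read counts for each Ensembl gene. The submitters' processing notes name STAR, Subread's featureCounts, GRCm38 and mm10. The sources used here do not give the software versions, annotation or strand setting. The libraries carry no molecular identifiers, so reads copied from the same molecule during amplification are counted apart. The exact intervals and floors treat reads as independent. They cover counting error only and can be too narrow even for that. The deposited counts summed to 21267116 to 30434442 per embryo. Across genes, the correlation of log2 CPM was 0.982 between the FLAG-Lhx1 embryos and 0.978 between the FLAG-Lhx1-mt embryos.

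From these counts, genes were filtered with filterByExpr (minimum count 10, minimum total 15), which left 15822, and scaled by TMM. The groups were compared with edgeR 4.0.16 (R 4.3.3; estimateDisp, glmQLFit in its legacy form, glmQLFTest) with group only, Benjamini-Hochberg adjustment over all tested genes and a threshold of 0.05. Standard errors divide the size of a log2 fold by the root of its F statistic, and 95% intervals use 15.4 degrees of freedom, 13.4 of them borrowed from other genes. With 2 embryos in each group, the p-values rest on the spread within these pairs and, for the larger part, on the spread borrowed from other genes. The 12 alternatives were upper-quartile scaling, DESeq2 1.42.0, limma-voom (limma 3.58.1), the newer quasi-likelihood form of edgeR, no count filter, offsets for transcript length and GC content, ribosomal-RNA-like genes left out, a replicate block, and each of the 4 embryos left out in turn. A fit with 1 embryo left out has 1 embryo in that group and takes the spread within groups from the other pair. Its calls are therefore not comparable with those of the main fit. Symbols, positions and exon lengths came from GENCODE vM21, which held 96.2% of the IDs. CPM in the text are TMM-scaled. The procedure was also run on simulated data that gave every gene the same variability between embryos. Real genes differ in it, so that run does not measure the error rate in these embryos.

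The 8 genes and the lists were chosen with earlier results of these data known. Named genes are the 8 members, Lhx1, in each list and direction the 3 or fewer called genes with the smallest p (the 1 smallest where none was called), and the 3 genes most like the member with the largest fold; marker genes the rule picked are given as counts and sums only. Hells, Pcna, Trdmt1, Tdg, Sycp3, Prl8a2, Hbb-bh1, Hba-x, Pim2, Gm42418 and Crip2 were added after the values were seen.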

Additional observations from a re-analysis of the deposited data

How the results depend on the processing

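The number of called genes was 976 (42.5% of them higher) and ranged from 521 to 1648 with 1 embryo left out, namely 628 and 521 without FLAG-Lhx1 replicates 1 and 2 and 1648 and 1553 without FLAG-Lhx1-mt replicates 1 and 2. Upper-quartile normalization made 54.4% of 867 calls higher. Dnmt3b kept its sign and call in all 12 settings (-1.29 to -0.75 with 1 embryo left out). Dnmt3l and Tet1 kept their sign and stayed uncalled in all 12. The sign of Dnmt1 turned with no count filter (-0.016), with the offsets for length and GC content (-0.081) and with 1 embryo left out (-0.066 to 0.14). The log2 fold of Uhrf1 was -0.15 to 0.31 with 1 embryo left out, and that of Lhx1 -0.067 to 0.29, with -0.006 without FLAG-Lhx1 replicate 1. Dnmt3a became called with the length and GC offsets (-0.54) and was -0.50 to -0.17 with 1 embryo left out. Tet2 was 0.65 to 1.37 and Tet3 0.52 to 0.79 with 1 embryo left out. Dnmt3a and Tet3 became called without FLAG-Lhx1-mt replicate 1, and Tet2 without FLAG-Lhx1-mt replicate 2. Calls of such fits are not comparable with those of the main fit. The cause of these shifts was not tested. With the replicate block, 1138 genes were called and no call among the 8 changed (Dnmt3b -0.99). The deviations of same-numbered embryos correlated at 0.016, so the numbers were not taken as pairs.

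Per kilobase of the longest transcript, levels in FLAG-Lhx1 and FLAG-Lhx1-mt were 9.62 and 9.32 for Dnmt1, 9.16 and 11.6 for Dnmt3a, 3.78 and 4.404 for Tet1, 0.431 and 0.218 for Tet2, and 1.94 and 1.23 CPM for Tet3. Dnmt3l was at 0.440 CPM per kilobase in FLAG-Lhx1. The shorter divisor raises every level. The summed levels with that length, and the list sums without Tdrkh, Sycp3 or Lhx1, were chosen after seeing the data. Depth limits Dnmt3l, Dnmt3c and Asz1, which had few counts. Of the list medians under the alternatives, 41 moved by more than the spread between embryos and 163 did not.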
